A study of Sus scrofa with 9 samples.

Results

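The centromere, kinetochore and spindle checkpoint genes were followed through 3 stages of sperm formation in the pig. Members were taken by name, not by value: every gene identifier in the count table whose matched symbol is CENP followed by letters alone, or is on a list of 30 further symbols for the kinetochore, the checkpoint, the Aurora kinases and their partners. The rule found 42 genes of the 22342 listed, 16 with a CENP name and 26 of the 30 others, each carried by 1 identifier. KNL1, AURKA, AURKC and CENPX had no matching symbol, and PMF1, CENPB, CENPO and CENPW no matching row, so these are not analysed here. All 42 members passed the filter on low counts, which left 16802 genes, and the lowest count of a member in any library was 73, for CENPM.

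The kinetochore is the protein assembly that holds a chromosome to the spindle. Its base is a nucleosome with the histone variant CENP-A; an inner network of CENP proteins sits on it and recruits an outer network, the NDC80 complex included, that grips microtubules. Until each kinetochore is attached, the checkpoint proteins MAD and BUB restrain CDC20, the activator of the anaphase-promoting complex, and the Aurora kinases undo faulty attachments. In meiosis the shugoshins also shield centromeric cohesin at the first division, so that sister chromatids stay together until the second. Spermatogonia divide by mitosis, spermatocytes pass through a long meiotic prophase and both divisions, and round spermatids no longer divide.

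The 9 RNA-seq libraries were made from total RNA of cells of the testis, 3 labelled spermatogonia (numbers 1, 2 and 3), 3 spermatocytes (2, 3 and 4) and 3 round spermatids (1, 2 and 3). The labels give the tissue as testis and the stage, with no breed, age, genotype or treatment, and not how the cells were isolated. Their protocol speaks of 3 biological samples but names no animals, so the p-values speak only for the variation among the libraries at hand, part of which may be technical. Columns for spermatogonia are headed c-kit and those for spermatocytes Pachy; their match to the labels rests on those names and the shared numbers. A further set of columns, headed SSEA4, shares the number 3 with a library of spermatogonia but not 1 and 2; it was not used, and the labels do not say which set is meant, a doubt that bears on all values of spermatogonia. Library totals ran from 47963279 to 64639201 estimated counts. Below, CPM is the usual depth-scaled count, with library sizes adjusted by TMM factors for composition, and is used within a gene. TPM, the deposited value per transcript length, is used between genes. Errors are SD over n = 3 libraries unless SE is named.

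Cell markers were in part at odds with the labels. UCHL1, a marker of spermatogonia, was measured at 26.1 ± 1.36 CPM in their libraries, against 1.72 ± 0.679 for spermatocytes and 1.90 ± 0.686 for round spermatids. ZBTB16, another such marker, was as high in round spermatids, at 3.74 ± 0.350, 1.60 ± 0.139 and 4.32 ± 0.143 CPM in the order of the stages. Round spermatids and spermatogonia were not told apart (log2 fold change 0.21, edgeR adjusted p = 0.212). In TPM spermatogonia had the higher mean, 1.08 ± 0.107 against 0.841 ± 0.266 in round spermatids, with libraries that overlapped. STRA8, of the entry into meiosis, was highest in spermatogonia, at 5.51 ± 0.217 CPM against 2.37 ± 0.383 in round spermatids, and lowest in spermatocytes. SYCP3, of the meiotic chromosome axis, was measured at 63.5 ± 2.28, 119.8 ± 9.39 and 58.8 ± 1.92 CPM, and the transition protein gene TNP1 at 306 ± 7.58, 154 ± 79.8 and 927 ± 105. SYCP1, of the synaptonemal complex between axes, stood at 166 ± 58.0 CPM in spermatocytes against 29.3 ± 0.590 in spermatogonia, and PRM1, a protamine, at 3086 ± 708 CPM in round spermatids, but also at 746 ± 9.67 in spermatogonia and 518 ± 275 in spermatocytes. The 5 markers of peritubular myoid cells summed to 4053 to 4943 CPM in round spermatids, 16.3 to 17.4 in spermatogonia and 8.04 to 19.4 in spermatocytes. The 5 Leydig cell markers found, of 6, summed to 297 to 315 CPM in spermatogonia, 1.88 to 2.86 in spermatocytes and 25.4 to 33.8 in round spermatids. Among them HSD17B3 alone was highest in round spermatids, at 2.67 ± 0.186, 0.152 ± 0.0562 and 11.4 ± 2.09 CPM in the order of the stages. The 6 Sertoli cell markers summed to 27.1 to 29.8, 6.06 to 11.6 and 134 to 207 CPM. The 3 endothelial markers found, of 4, summed to 157 to 179.6 CPM in round spermatids and the 5 leukocyte markers to 24.6 to 32.0, against at most 16.1 and 2.71 in the other libraries. The 3 erythrocyte markers found, of 4, summed to at most 1.97 CPM in any library, and only AMH was at 0 in all libraries of a stage, the spermatocytes. In bulk RNA, fewer cells of a type and less RNA per cell cannot be told apart, and the part of these other cells in the results was not tested. Stage names mean the libraries so labelled.

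Levels of the members ranged widely. On the TPM scale, 33 of 42 stood at 10 or more in spermatogonia, 32 in spermatocytes and 22 in round spermatids. The member median was 34.2 TPM in spermatogonia, 44.9 in spermatocytes and 13.0 in round spermatids. TPM carries no TMM adjustment, so differences between stages in these values depend on the scale. Stages are compared in CPM below, with TPM as an alternative. PLK1, the polo kinase that drives entry into and passage through division, was first in all 3 stages, at 675 ± 13.2, 538 ± 81.9 and 414 ± 27.9 TPM. In spermatogonia it was followed by AURKB (274 ± 4.41), BIRC5 (198 ± 3.25) and SGO2 (162 ± 5.48). In spermatocytes SGO2 was second (502 ± 39.6 TPM), with libraries that overlapped those of PLK1, ahead of CENPP (271 ± 8.40), TTK (231 ± 24.0) and NUF2 (219.8 ± 26.7), of which TTK and NUF2 overlapped. In round spermatids BUB3 (96.1 ± 3.51 TPM), AURKB (78.8 ± 36.2), CENPP (72.6 ± 8.07) and SGO2 (71.2 ± 3.76) came next by mean. The place of AURKB rested on replicate 2, since it stood at 61.7, 120.4 and 54.5 TPM in round spermatids 1, 2 and 3. It overlapped BUB3, CENPP and SGO2, and CENPP overlapped SGO2. CENPI, of the inner network, was lowest in spermatogonia and spermatocytes (2.88 ± 0.0989 and 1.93 ± 0.630 TPM), and KNTC1, of the RZZ complex that brings dynein and the MAD proteins to kinetochores, in round spermatids (1.03 ± 0.437).

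**Figure D1:**
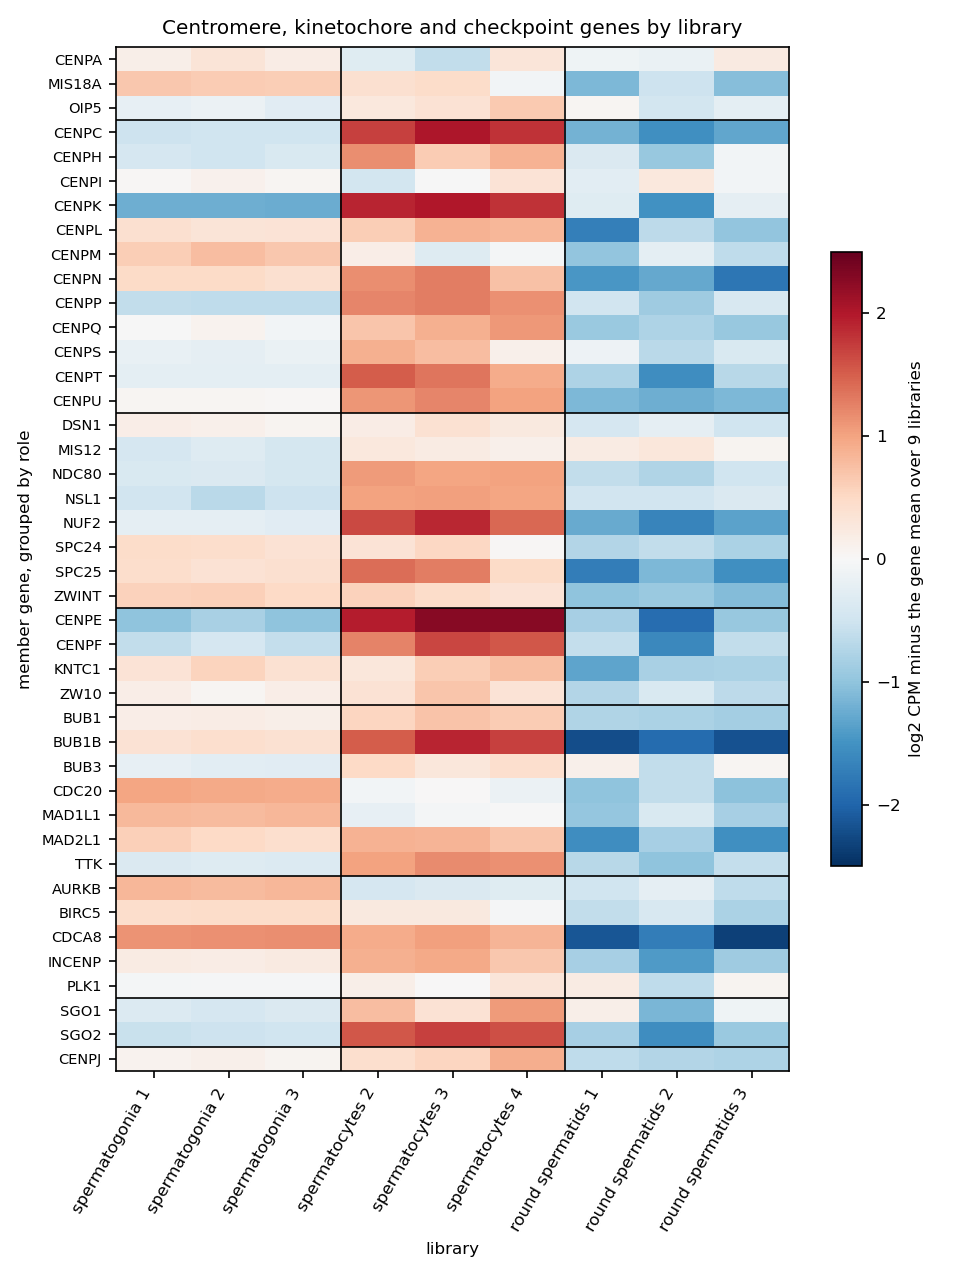
Log2 CPM of each of the 42 members (vertical axis, grouped by role with lines between groups) in each of the 9 libraries (horizontal axis), shown as the difference from the gene's mean over the 9; red is above and blue below, with the colour scale ending at 2.5 in both directions. Spermatocytes hold the highest mean CPM for 31 members and spermatogonia for 11, orders of means that include near ties and members not called.

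The highest mean CPM fell in spermatocytes for 31 of the 42 members, in spermatogonia for 11 and in round spermatids for none. The 11 were CENPA, MIS18A, CENPI, CENPM, SPC24, ZWINT, CDC20, MAD1L1, AURKB, BIRC5 and CDCA8. Round spermatids had the lowest mean for 33. Summed over members, libraries held 3541 to 3596 CPM in spermatogonia, 5789 to 6354 in spermatocytes and 1805 to 2344 in round spermatids, without overlap. Spread between libraries differed by stage: the median coefficient of variation of a member was 2.54% over spermatogonia, 10.4% over spermatocytes and 17.4% over round spermatids.

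Between spermatocytes and spermatogonia the inner and outer kinetochore, the kinetochore motor CENPE and the shugoshins were mostly higher, while CDC20, MAD1L1 and AURKB were lower. In edgeR's quasi-likelihood test over all genes, with a Benjamini-Hochberg adjusted p below 0.05, 26 of 42 members were called higher (61.9%) and 5 lower (11.9%), against 29.3% higher and 44.0% lower of all genes tested. The members' median log2 fold change was 0.63, and that of all genes -0.32. The split depended on scaling: without normalization factors it was 16 higher and 10 lower, and on TPM 14 and 10, while the members' median lay 0.95 above that of all genes as reported and without factors, and 0.84 or 0.51 above it on TPM with a pseudocount of 0.1 or 1. Spermatogonia libraries also carried the Leydig transcripts given above, whose part in these calls was not tested. The 14 members higher in all 21 alternatives tried were CENPC, CENPH, CENPK, CENPP, CENPT, CENPU, NDC80, NSL1, NUF2, CENPE, CENPF, BUB1B, TTK and SGO2, and the 3 lower in all of them were CDC20, MAD1L1 and AURKB.

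**Figure D2:**
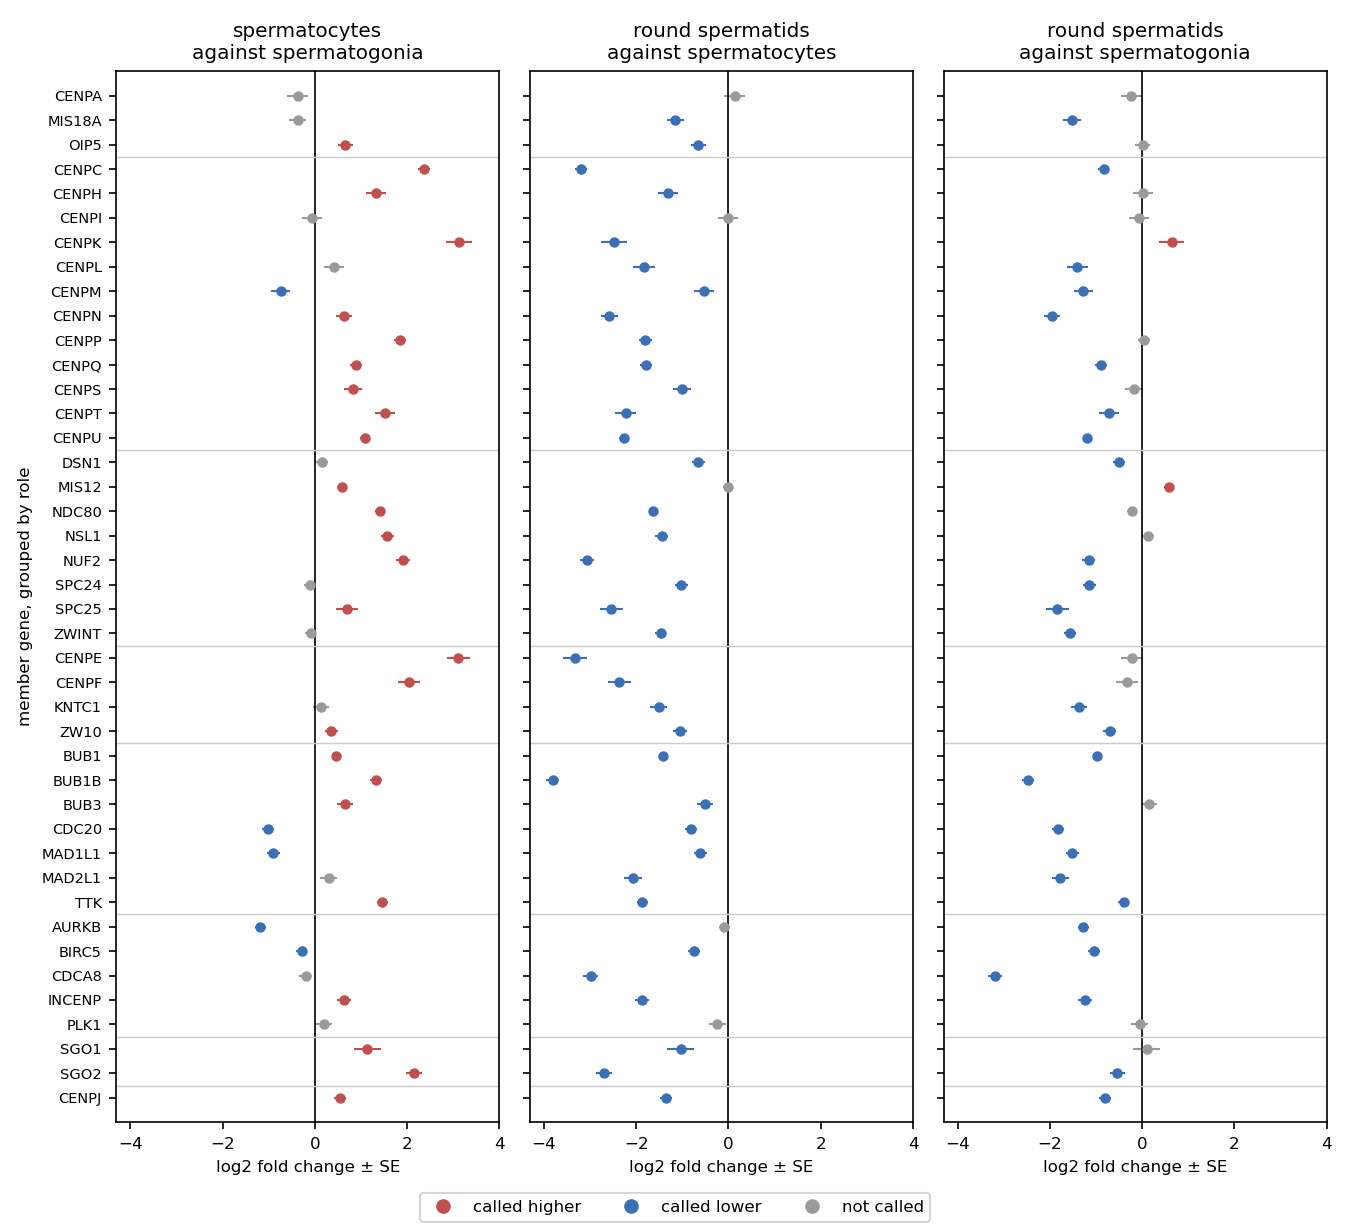
Log2 fold change of each member with its standard error (horizontal axis) in the 3 comparisons, grouped by role; red points were called higher, blue lower and grey not called in edgeR at an adjusted p below 0.05. In the middle panel 37 members are called lower, and BUB1B lies farthest to the left at -3.81.

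Of 12 inner network genes 9 rose, 1 fell and 2 were not called. CENPK, which helps tie the inner network together, stood at 2.85, 2.84 and 2.82 CPM in spermatogonia 1, 2 and 3 and at 24.8, 26.5 and 23.2 in spermatocytes 2, 3 and 4. That was the largest rise of any member, 3.13 ± 0.284 SE on the log2 scale (edgeR, adjusted p = 5.98e-06), or 8.73-fold. CENPC, the protein that reads the CENP-A nucleosome and anchors the rest, stood at 42.4, 43.1 and 43.4 CPM in spermatogonia and 199, 246 and 214 in spermatocytes, a rise of 2.36 ± 0.126 (adjusted p = 5.27e-07). Each spermatocyte library lay far above each spermatogonia library for both genes. CENPP rose by 1.85, CENPT, which links DNA to the NDC80 complex, by 1.52, CENPH by 1.32 and CENPU by 1.08. Smaller rises were those of CENPQ (0.89), CENPS (0.83) and CENPN (0.63), each lost on TPM, and the last 2 also without normalization factors and with spermatogonia libraries summed. None of the 3 overlapped between the stages. CENPM went the other way, from 3.76, 4.19 and 3.91 to 2.74, 1.96 and 2.37 CPM, a change of -0.74 ± 0.211 (adjusted p = 0.00894) that was lost without the 50 most abundant genes, without the filter and with spermatogonia libraries summed. CENPL (9.20 ± 0.856 against 6.85 ± 0.190 CPM) and CENPI (3.99 ± 1.09 against 4.18 ± 0.129) were not called. CENPL was called in 7 of 21 alternatives, all as higher, with log2 fold changes from -0.10 to 0.67 over the 21. CENPI, on the X chromosome, is the only member with a position there.

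CENPA, the centromeric histone, was not called. It stood at 5.35, 6.07 and 5.48 CPM in spermatogonia and 3.90, 3.14 and 5.99 in spermatocytes, values that overlapped (log2 fold change -0.37 ± 0.227 SE, edgeR adjusted p = 0.160). Without spermatocytes replicate 4, the highest of its stage, CENPA was called lower, as it was without normalization factors, with the replicate block and on TPM. MIS18A, which licenses the loading of new CENP-A, stood at 73.2 ± 13.6 against 94.6 ± 2.17 CPM without overlap and was not called, but was called lower in 4 of 21 alternatives: without normalization factors, without round spermatids 2 and on TPM. OIP5, its partner, rose by 0.66 ± 0.161 (adjusted p = 0.00376), a call lost on TPM, without normalization factors and with spermatogonia summed.

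Of 8 outer network genes 5 rose and 3 were not called. NUF2, a coiled-coil arm of the NDC80 complex, stood at 42.6, 42.4 and 41.0 CPM in spermatogonia and 157, 184 and 134 in spermatocytes, a rise of 1.91 ± 0.145 (edgeR, adjusted p = 2.15e-06). NDC80, the other arm, stood at 29.4, 29.8 and 28.5 and 79.9, 76.6 and 76.9 CPM, a rise of 1.41 ± 0.102. SPC25, at the base of the same complex, rose by 0.70 ± 0.235 (adjusted p = 0.0199), a call lost in 8 of 21 alternatives, those without spermatogonia 2 or 3 or spermatocytes 2 or 3 among them. SPC24, its partner, stood at 33.9, 33.7 and 31.8 and 31.5, 35.2 and 25.2 CPM, which overlapped; it was not called as reported. NSL1, of the MIS12 complex that joins the inner to the outer kinetochore, rose by 1.57 ± 0.138, and MIS12 by 0.59 ± 0.110, the latter lost on TPM, without normalization factors and with spermatogonia summed. DSN1 (0.15 ± 0.138) and ZWINT (-0.09 ± 0.120) were not called. Without normalization factors and on TPM, SPC24 and ZWINT were called lower. Without the 50 most abundant genes and with the 2 stages alone, DSN1 was called higher. Signs turned over the alternatives for all of them, from -0.65 to 0.13 for SPC24, -0.61 to 0.15 for ZWINT and -0.37 to 0.39 for DSN1.

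CENPE, the plus-end motor that carries chromosomes to the spindle equator, stood at 23.4, 27.0 and 23.7 CPM in spermatogonia and 184, 229.9 and 228 in spermatocytes. It was 8.65-fold higher (3.11 ± 0.253, edgeR adjusted p = 3.04e-06). CENPF, a large corona protein that binds microtubules, stood at 182, 210.0 and 185 and 662, 892 and 821 CPM, 4.12-fold higher. Neither gene's groups overlapped. ZW10, of the RZZ complex, was near the threshold (0.35 ± 0.141, adjusted p = 0.0425): it lost its call without any single spermatogonia library, without spermatocytes 3 or without round spermatids 3, and its sign turned on TPM and without normalization factors. KNTC1 was not called (0.14 ± 0.176).

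The 7 checkpoint genes divided. TTK, the kinase that starts checkpoint signalling (also called MPS1), stood at 176, 181 and 179 CPM in spermatogonia and 455, 517 and 505 in spermatocytes, a rise of 1.46 ± 0.120 (edgeR, adjusted p = 3.29e-06). BUB1B, which encodes BubR1 of the mitotic checkpoint complex, stood at 56.1, 58.3 and 56.4 and 124, 163 and 143 CPM, a rise of 1.33 ± 0.127. BUB3, which carries BUB1 and BubR1 to kinetochores, rose by 0.66 ± 0.172 and BUB1 by 0.46 ± 0.0912; both calls were lost on TPM, where BUB1 changed sign, without normalization factors and with spermatogonia summed. CDC20 went from 517, 505 and 499 CPM to 248, 263 and 238, a log2 fold change of -1.02 ± 0.125 (adjusted p = 4.06e-05). MAD1L1, the platform that converts MAD2 to its active form, went from 120.2, 119 and 122 to 59.4, 66.2 and 68.4 CPM, a log2 fold change of -0.90 ± 0.147 (adjusted p = 3.00e-04). MAD2L1, which encodes MAD2, stood at 35.2, 32.8 and 31.0 and 42.4, 42.1 and 37.4 CPM without overlap but was not called (edgeR, adjusted p = 0.159). In 6 of 21 alternatives it was called higher, RLE size factors, DESeq2 and the fit without round spermatids 2 among them. Its log2 fold change ran from -0.22 to 0.54 over the alternatives, so its sign turned in some.

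The passenger complex, which corrects attachments at the centromere, held calls in both directions. AURKB, its kinase, went from 133, 129 and 133 CPM in spermatogonia to 55.6, 58.4 and 60.5 in spermatocytes, the largest fall of any member (-1.18 ± 0.117, edgeR adjusted p = 1.05e-05). The germ cell paralog AURKC has no matched symbol here, and reads shared between close paralogs could be split by the counting, so the AURKB level is uncertain. INCENP, the scaffold, went from 160.2, 159 and 162 to 257, 269 and 222 CPM, a rise of 0.64 ± 0.152 lost on TPM, without normalization factors and with spermatogonia summed. BIRC5, which encodes survivin, stood at 188, 192 and 191 and 164, 164 and 137 CPM and was barely called (-0.29 ± 0.122, adjusted p = 0.0489); the call was lost in 14 of 21 alternatives, without each library in turn except round spermatids 2 and 3 among them. CDCA8, which encodes borealin, was not called (66.3 ± 3.84 against 76.4 ± 1.19 CPM), nor was PLK1 (588, 600.2 and 601 and 675, 617 and 751 CPM). In 4 of 21 alternatives CDCA8 was called lower (without normalization factors, without round spermatids 2 and on TPM). In 3 PLK1 was called higher (without the 50 most abundant genes, without the filter and with the 2 stages alone). Over the alternatives CDCA8 ran from -0.73 to 0.04 on the log2 scale and PLK1 from -0.34 to 0.43.

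Both shugoshins rose. SGO2, the form that protects centromeric cohesin in meiosis, stood at 176, 183 and 184 CPM in spermatogonia and 763, 854 and 801 in spermatocytes, 4.45-fold higher (2.15 ± 0.172, edgeR adjusted p = 2.80e-06). SGO1, the main form in mitosis, stood at 4.93, 4.66 and 4.86 and 10.6, 7.99 and 13.0 CPM, a rise of 1.13 ± 0.293 that was lost on TPM and with spermatogonia summed. CENPJ, a protein of centriole growth that carries a CENP name, rose by 0.54 ± 0.130, but its difference on TPM was close to 0 and slightly negative, and the call was also lost without normalization factors and with spermatogonia summed. Spermatogonia libraries were far closer to each other than other replicates, with a median chi-square per gene of 0.801 to 0.861 against 5.11 to 10.8 between spermatocytes. With the spermatogonia libraries summed into 1 sample, the members' median log2 fold change against spermatocytes was 0.57.

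**Figure D3:**
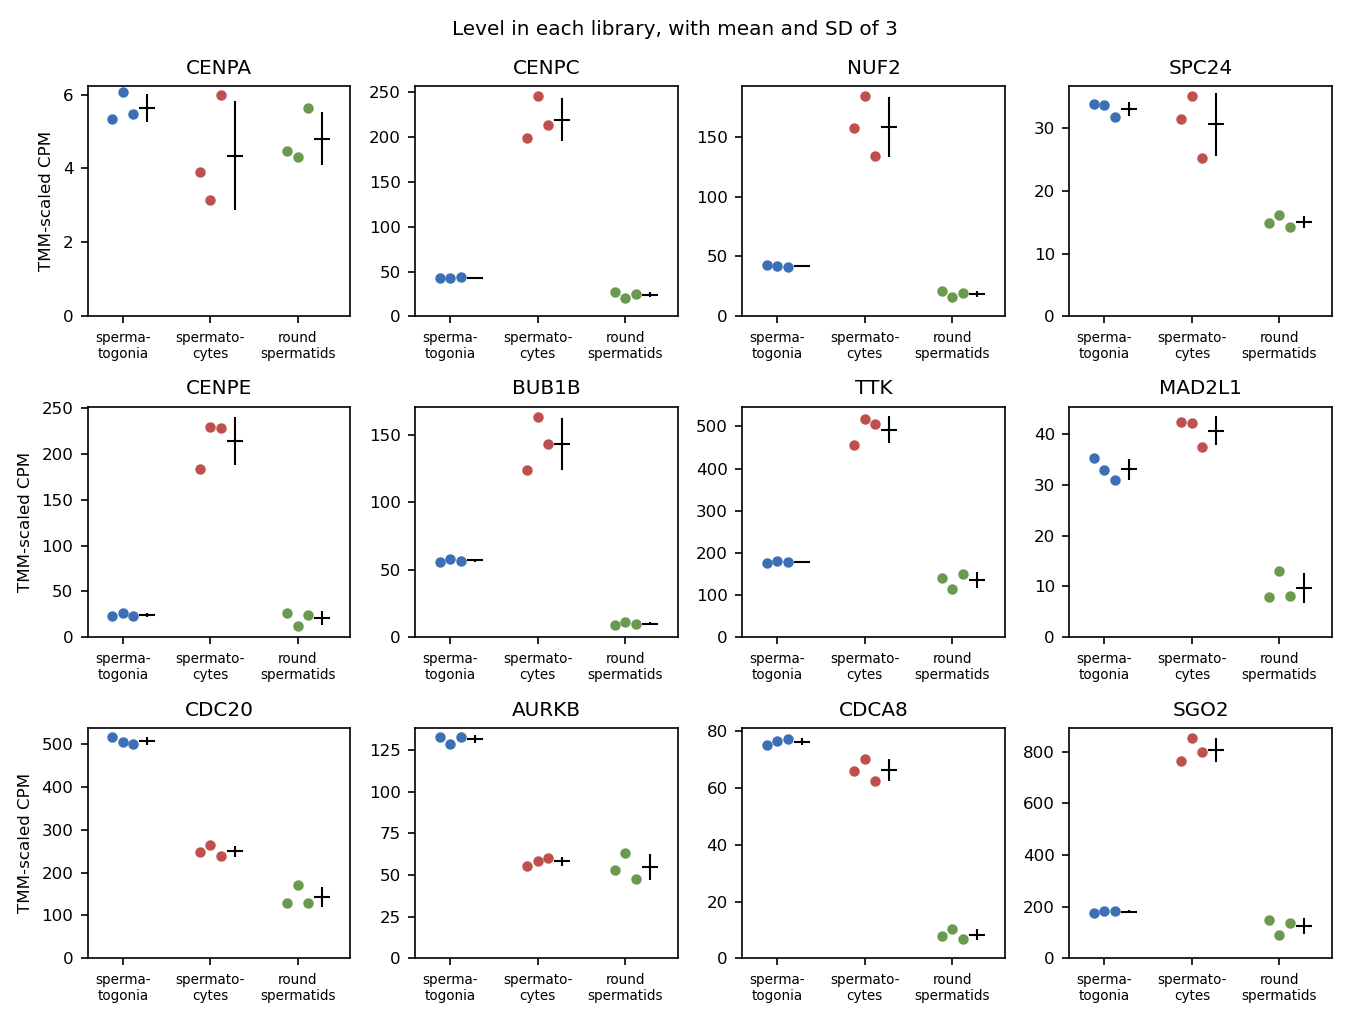
TMM-scaled CPM (vertical axes, from 0) of 12 members in each library, with the mean and SD of 3 beside the points of each stage. BUB1B, SGO2 and CENPE peak in spermatocytes, CDC20 and AURKB are highest in spermatogonia, and the CENPA points of the 3 stages overlap.

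Relative to spermatocytes, round spermatids were lower in nearly every member. BUB1B, CENPE, CENPC, NUF2 and CDCA8 were each lower by about 3 on the log2 scale or more, while CENPA, CENPI, MIS12, AURKB and PLK1 were not called. In edgeR 37 of 42 members (88.1%) were called lower, against 36.4% of all genes tested. None was called higher, against 42.7% of all genes, and the count stayed at 0 at an unadjusted p below 0.05, with DESeq2 and with limma-voom; without spermatocytes 4 it was 1, CENPA. The members' median was -1.46 and that of all genes 0.19. All 42 members lay below the median of all genes; 29 were lower in all 21 alternatives. Without normalization factors 29 were lower and 1, MIS12, higher; OIP5, CENPM, DSN1, BUB3, CDC20, MAD1L1, BIRC5 and SGO1 then lost their calls. These libraries also carried the myoid, Sertoli, Leydig, endothelial and leukocyte transcripts given above, whose part in the falls was not tested.

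BUB1B fell most, from 124, 163 and 143 CPM in spermatocytes to 9.41, 11.5 and 9.63 in round spermatids 1, 2 and 3, which was 14.0-fold lower (log2 fold change -3.81 ± 0.141 SE, edgeR adjusted p = 5.28e-09). All 7 checkpoint genes fell. MAD2L1 went from 42.4, 42.1 and 37.4 to 7.97, 13.0 and 8.03 CPM (-2.07 ± 0.190) and TTK from 455, 517 and 505 to 141, 114 and 150.2 (-1.87 ± 0.122). BUB1 fell by 1.42 and CDC20 by 0.81. The smallest were the falls of MAD1L1 by 0.61 and of BUB3 by 0.51; BUB3, with 175, 105 and 167 CPM in round spermatids, also lost its call without spermatocytes 2, and MAD1L1 on TPM.

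In the inner network 11 of 12 genes fell. CENPC went from 199, 246 and 214 CPM to 26.8, 21.0 and 24.6, 9.11-fold lower (-3.19 ± 0.130, edgeR adjusted p = 9.65e-09). CENPN, which also reads the CENP-A nucleosome, fell by 2.58, CENPK by 2.48, CENPU by 2.27 and CENPT by 2.23. The call of CENPM was weak (-0.53 ± 0.218, adjusted p = 0.0451), with libraries that overlapped, and was lost in 14 of 21 alternatives, including without any single spermatogonia library, spermatocytes 2 or 4, or round spermatids 1 or 3. CENPI stood at 3.33, 4.77 and 3.82 CPM in round spermatids and 2.92, 3.95 and 5.09 in spermatocytes. CENPA stood at 4.47, 4.32 and 5.63 CPM, inside the range of spermatocytes, with a difference of 0.14 ± 0.228 (adjusted p = 0.578); without spermatocytes 4 it was called higher. MIS18A fell by 1.15 and OIP5 by 0.65.

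In the outer network 7 of 8 genes fell. NUF2 went from 157, 184 and 134 to 20.9, 15.9 and 19.7 CPM (-3.07 ± 0.152), SPC25 fell by 2.54, NDC80 by 1.63 and SPC24 by 1.02. MIS12 was the exception, at 20.1, 21.4 and 18.5 CPM against 21.1, 20.3 and 19.2, a difference of -0.02 ± 0.109 (edgeR, adjusted p = 0.890). All 4 genes of the corona and RZZ complex fell: CENPE from 184, 229.9 and 228 to 26.7, 12.6 and 24.4 CPM (-3.33 ± 0.255), CENPF by 2.37, KNTC1 by 1.51 and ZW10 by 1.05. Both shugoshins fell, SGO2 from 763, 854 and 801 to 147, 89.0 and 137 CPM (-2.70 ± 0.176) and SGO1 by 1.04.

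In the passenger complex CDCA8, INCENP and BIRC5 fell and AURKB was not called. CDCA8 went from 66.1, 70.2 and 62.6 CPM to 7.82, 10.4 and 6.84, 7.93-fold lower (-2.99 ± 0.156, edgeR adjusted p = 4.33e-08). INCENP went from 257, 269 and 222 to 78.0, 51.8 and 75.4 CPM (-1.87 ± 0.157) and BIRC5 from 164, 164 and 137 to 90.7, 106 and 81.0 (-0.75 ± 0.122). AURKB stood at 52.9, 63.5 and 47.9 CPM in round spermatids, which overlapped its spermatocyte values (-0.09 ± 0.116, adjusted p = 0.499); without round spermatids 2, its highest, it was called lower. PLK1 stood at 702, 392 and 635 CPM in round spermatids and was not called (-0.24 ± 0.188).

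Against spermatogonia, round spermatids were lower for 27 of 42 members (64.3%) and higher for 2 (4.76%), where 39.7% and 39.5% of all genes tested were called. The members' median was -0.82 and that of all genes 0.00. The 3 comparisons share libraries, so their calls are not independent of each other. On TPM with a pseudocount of 0.1, 38 members were lower and none higher, with the median of all genes at -0.58. The largest falls were those of CDCA8 (-3.19 ± 0.158), BUB1B (-2.48 ± 0.133), CENPN (-1.95 ± 0.178), SPC25 (-1.84 ± 0.249) and CDC20 (-1.83 ± 0.128), with edgeR adjusted p from 5.08e-08 for CDCA8 to 5.43e-05 for SPC25. CDC20 stood at 130.1, 171 and 128 CPM in round spermatids, below all spermatogonia and all spermatocyte libraries. AURKB fell by 1.27, MAD1L1 by 1.51 and MIS18A by 1.52.

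The 2 higher members were MIS12 (0.58 ± 0.110, edgeR adjusted p = 6.55e-04), at 20.1, 21.4 and 18.5 against 13.2, 14.1 and 13.0 CPM, and CENPK (0.64 ± 0.273, adjusted p = 0.0499), at 5.38, 2.32 and 5.63 against 2.85, 2.84 and 2.82 CPM. On TPM neither was called and both differences were slightly negative. CENPK rested on round spermatids 1 and 3, since replicate 2 lay below the spermatogonia, and its call was lost without any single library except round spermatids 2. With spermatogonia summed neither was called. CENPE and CENPF were not called (21.2 ± 7.55 against 24.7 ± 1.98 and 153 ± 53.4 against 192 ± 15.5 CPM), although on TPM both were lower. CENPH, CENPP, OIP5, BUB3 and SGO1 were also not called in CPM (log2 fold changes 0.01 for OIP5, 0.02 for CENPH, 0.05 for CENPP, 0.10 for SGO1 and 0.15 for BUB3) and lower on TPM with a pseudocount of 0.1.

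Because TPM is per length, the proportions of transcripts within a complex can be set beside each other, as a description. In the NDC80 complex, NUF2 stood at 3.92 ± 0.0351 times NDC80 in spermatogonia, 5.54 ± 0.913 in spermatocytes and 2.04 ± 0.190 in round spermatids. The ratio of NUF2 to SPC24 was 0.660 ± 0.00893, 2.68 ± 0.0858 and 0.654 ± 0.121, so that SPC24 was the more abundant transcript outside spermatocytes and NUF2 within them. SPC24 exceeded its partner SPC25 in every library, with ratios of 10.4 ± 0.484, 6.15 ± 1.32 and 17.3 ± 2.90.

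In the passenger complex, AURKB stood at 2.08 ± 0.0214 times INCENP in spermatogonia, 0.595 ± 0.0809 in spermatocytes and 2.14 ± 0.833 in round spermatids. Spermatocytes did not overlap the other stages in this ratio. AURKB to CDCA8 was 5.44 ± 0.132, 2.78 ± 0.239 and 20.9 ± 1.49. BUB1B to BUB1, the checkpoint paralogs, was 0.598 ± 0.00698, 1.09 ± 0.0846 and 0.209 ± 0.0240, above 1 in spermatocytes alone among the 3 stages. CDC20 to MAD2L1, activator to inhibitor, was 9.46 ± 0.436, 3.78 ± 0.165 and 9.29 ± 1.08. SGO2 stood at 25.7 to 28.3 times SGO1 in spermatogonia, 44.2 to 77.0 times in spermatocytes and 15.4 to 23.0 times in round spermatids. CENPC stood at 8.74 ± 0.550, 62.9 ± 24.8 and 5.79 ± 0.951 times CENPA.

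**Figure D4:**
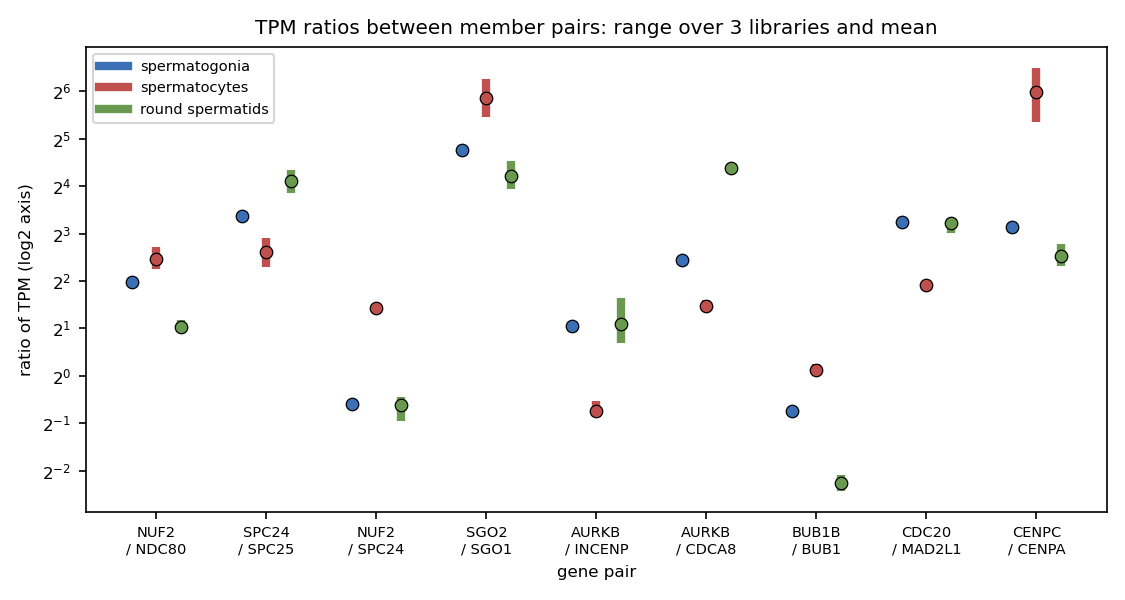
Ratio of TPM between 9 pairs of members (horizontal axis) on a log2 axis, with the range over 3 libraries as a bar and the mean as a point for each stage. CENPC over CENPA reaches 62.9 in spermatocytes, and BUB1B over BUB1 falls to 0.209 in round spermatids.

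Round spermatids replicate 2 stood apart from its partners, with a median chi-square per gene of 20.5 to 22 against them, where round spermatids 1 and 3 differed by 2.27. For members, in CPM, its ratio to the mean of the other 2 had a median of 0.996 but ran from 0.421 for CENPK to 1.63 for MAD2L1. It held the highest CPM of the stage for 19 of 42 members, against 43.6% of all genes. The ratio depends on the scale. In TPM, replicate 2 stood at 5.80 for MAD2L1 against 2.18 and 2.14, and at 11.6 for CENPK against 16.5 and 16.9. Without round spermatids 2, 38 members were lower than in spermatocytes. Of the 42 members, 41 had a RefSeq position on Sscrofa11.1, matched by symbol and spread over 17 chromosomes. CENPC (ENSSSCG00000008921, chromosome 8 from 65237825 to 65315788), MAD2L1 (ENSSSCG00000036256, 8 from 103927358 to 103936669) and CENPE (ENSSSCG00000023296, 8 from 117888968 to 117965325) lie on 1 chromosome. CENPK (ENSSSCG00000016946) lies on chromosome 16 from 44008673 to 44080565, BUB1B (ENSSSCG00000004782) on chromosome 1 from 131093026 to 131143840, AURKB (ENSSSCG00000028924) on chromosome 12 from 53410833 to 53426165, and SGO2 (ENSSSCG00000016092) on chromosome 15 from 104099378 to 104150723.

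Genes that work beside the members were read from the same test, against the same shares of all genes: 29.3% higher and 44.0% lower between spermatogonia and spermatocytes, 42.7% and 36.4% between spermatocytes and round spermatids, and 39.5% and 39.7% between spermatogonia and round spermatids. Of 17 found kinetochore partners outside the rule, 12 rose and 5 fell between spermatogonia and spermatocytes (median 0.51), and 12 fell and 2 rose between spermatocytes and round spermatids (median -0.82); without normalization factors the counts of the first comparison were 7 and 5 and its median 0.09, and on TPM with a pseudocount of 0.1 they were 7 and 5 and -0.02. SKA1, of the complex that keeps NDC80 on shrinking microtubules, rose from 2.99 ± 0.0424 to 45.3 ± 9.19 CPM (3.92 on the log2 scale, edgeR adjusted p = 4.66e-06). MEIKIN, the meiosis-specific kinetochore protein that works with PLK1 and the shugoshins, stood at 6.57 ± 0.111, 24.8 ± 2.54 and 3.23 ± 0.744 CPM in the 3 stages, called higher in spermatocytes than in both others. HJURP, the chaperone that loads CENP-A, rose from 26.8 ± 0.940 to 61.2 ± 5.67 CPM and stood at 51.5 ± 5.13 in round spermatids, not called against spermatocytes (adjusted p = 0.0667) but called lower in 6 alternatives, without spermatocytes 2 and without round spermatids 2 among them. CDT1, a replication licensing factor that also binds kinetochores, went from 9.14 ± 0.756 to 1.15 ± 0.348 CPM (-2.98 on the log2 scale).

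The anaphase-promoting complex, the target of the checkpoint, was read as a list with genes that act beside it. The added genes found were FZR1, FBXO5, UBE2C, UBE2S and ESPL1. Of the 17 genes found on this list, 7 were higher and 7 lower in spermatocytes than in spermatogonia. That was 41.2% each, the lower share close to that of all genes. The list's median was 0.08, and it turned to -0.34 without normalization factors and -0.45 on TPM with a pseudocount of 0.1. In round spermatids 13 of 17 were lower than in spermatocytes (76.5%), and 9 without normalization factors. CDC27, a subunit of the complex, rose from 120.2 ± 1.29 CPM in spermatogonia to 454 ± 54.0 in spermatocytes. ESPL1, the separase that the complex releases, fell from 344 ± 9.88 to 151 ± 25.6 CPM and then to 24.2 ± 5.85 in round spermatids. Of 21 found spindle assembly genes 15 (71.4%) rose and 3 (14.3%) fell in spermatocytes (median 1.11), and 20 fell and 1 rose in round spermatids against spermatocytes (median -1.98). The first median was 0.69 without normalization factors, with 13 higher and 3 lower, and 0.59 or 0.57 on TPM, with 12 higher and 4 lower. KIF18A, a motor that damps chromosome movement, stood at 15.1 ± 0.490, 70.4 ± 7.05 and 7.74 ± 1.03 CPM, and PRC1, which bundles the central spindle, at 91.9 ± 2.55, 275 ± 16.7 and 30.4 ± 4.64. NUMA1, of the spindle poles, was the 1 gene that rose in round spermatids against spermatocytes, from 68.4 ± 3.42 to 117 ± 8.18 CPM.

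Among 16 found cell cycle genes, 6 (37.5%) rose and 10 (62.5%) fell between spermatogonia and spermatocytes (median -0.83, or -1.25 without normalization factors and -1.37 on TPM with a pseudocount of 0.1). The 6 were CCNB2, CDK1, LIN9, LIN54, MYBL1 and TOP2A; on TPM CDK1, LIN9 and LIN54 lost their calls, as CDK1 did without any single spermatogonia library. MYBL1, a MYB factor of male meiosis, stood at 55.5 ± 2.47, 338 ± 20.5 and 27.8 ± 6.05 CPM. The replication helicase genes MCM2, MCM3, MCM5 and MCM6 and the M-phase factor FOXM1 fell, though MCM6 was not called without the 50 most abundant genes, without the filter or with spermatogonia summed. FOXM1 went from 674 ± 13.2 to 377 ± 37.4 CPM. The 2 B-type cyclins parted, CCNB1 falling from 171 ± 1.81 to 95.2 ± 13.7 CPM and CCNB2 rising from 293 ± 4.77 to 624 ± 42.5. In round spermatids against spermatocytes 8 of the 16 were lower and 4, E2F4, MCM3, MYBL2 and TYMS, higher (25.0%), with a median of -0.41 that turned to 0.05 without normalization factors, where 6 were higher and 5 lower. In round spermatids against spermatogonia 14 of the 16 were lower and 1, TYMS, higher, a call lost without any single spermatogonia library, without round spermatids 1 or 2 and on TPM.

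**Figure D5:**
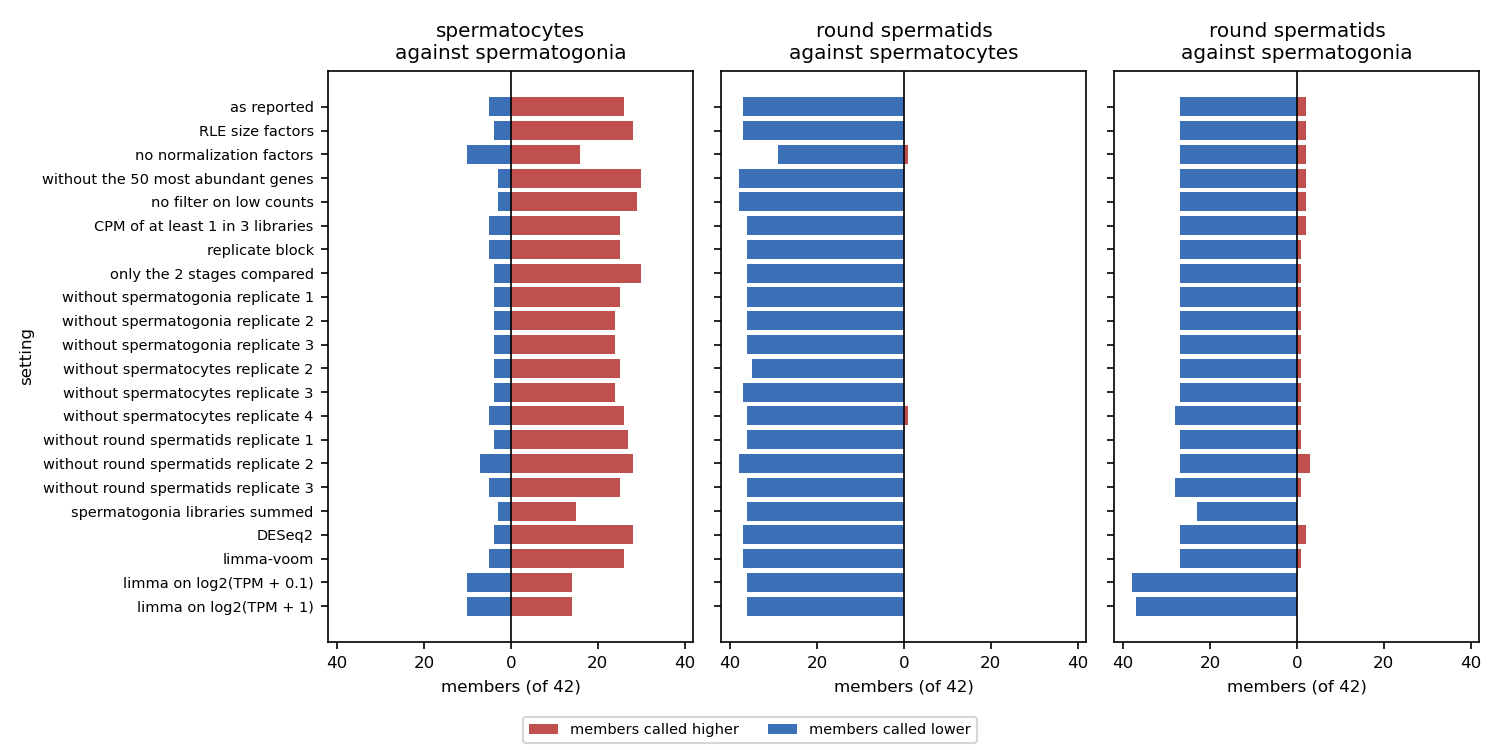
Number of members called higher (red, to the right) and lower (blue, to the left) of 42 in each comparison (panels) under each setting (vertical axis). The red bars of the left panel run from 14 to 30 members, and the blue bars of the middle panel from 29 to 38.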

How the data were processed

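RNA libraries were made from pig testis cells with a directional kit and read in pairs on an Illumina instrument, per the labels' protocols. The submitters' processing notes name the build Sscrofa11.1 and bcl2fastq; aligner, quantifier, annotation and strand setting: not given in the sources used here, so overlapping and antisense genes are uncertain. The authors deposited 1 table of estimated counts and 1 of TPM, whose listed genes leave out 3.19 to 11.8% of the full scale. Of 15 library columns in each, 6 were not used: 2 of round spermatids and 4 headed SSEA4, whose names match no sample's labels beyond a shared number. Symbols were matched for 14749 of 22342 identifiers.

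Estimated counts were rounded, filtered with filterByExpr, scaled with TMM factors (0.774 to 1.26) and fitted over all 9 libraries in R 4.3.3 by the quasi-likelihood functions of edgeR 4.0.16, glmQLFit and glmQLFTest. The common dispersion was 0.0316. Adjusted p-values are Benjamini-Hochberg over 16802 genes, called below 0.05, and SE is the log2 fold change over the square root of F. Depth, 47963279 to 64639201 counts a library, gave each member at least 73 counts in each. The procedure was tested on simulated data. Alternatives used limma 3.58.1 (with voom, or on log2 TPM plus 0.1 or 1), DESeq2 1.42.0, other scalings and filters, and each library left out. Summing the spermatogonia was added after seeing the data. Python 3.11.15 and matplotlib 3.10.9 drew tables and plots.

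Members, lists and alternatives were chosen with earlier results of these data known. Every found member may be named; values of single libraries were given for a fixed set of 20 symbols (17 found) and the 3 largest called rises and falls per comparison that reached 5 CPM in one of the stages without overlap, and for a few further members chosen after their values were seen. Libraries were not treated as paired by their replicate numbers, except in the alternative with the replicate block. Positions are RefSeq's on Sscrofa11.1, matched by symbol. A planned description of promoter motifs was not run.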

Additional observations from a re-analysis of the deposited data

How the results depend on the processing

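In all 21 alternatives, 19 of 42 members kept the same call (higher, lower or none) for spermatocytes against spermatogonia. For round spermatids 30 did so against spermatocytes and 25 against spermatogonia. Of these, 2, 1 and 2 were uncalled throughout, and the sign of an uncalled member could turn, as that of CENPI did in each comparison. Members higher in spermatocytes than spermatogonia, 26 as reported, numbered 16 without normalization factors, 15 with spermatogonia summed and 14 on TPM with either pseudocount. Members lower, 5 as reported, numbered 10 without normalization factors and on TPM, and 3 without the 50 most abundant genes, without a filter and with spermatogonia summed. With each library left out they ran from 24 to 28 higher and from 4 to 7 lower; 7 were lower without round spermatids 2. Members higher in round spermatids than spermatocytes numbered 1 without normalization factors and 0 to 1 with each library left out. Members higher in round spermatids than spermatogonia, 2 as reported, numbered 1 with only the compared stages and with limma-voom, 0 with spermatogonia summed and on TPM, and 1 to 3 with each library left out (2 or fewer except without round spermatids 2). The lower counts of these 2 comparisons stayed within 1.5 times of those reported. The median of all genes between spermatocytes and spermatogonia, -0.32 as reported, was -0.14 with RLE factors and -0.74 without factors.

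With the replicate block, 25 members were higher and 5 lower in spermatocytes than spermatogonia, 36 lower in round spermatids than spermatocytes, and 27 lower and 1 higher in round spermatids than spermatogonia. Whether a shared number marks a shared sample is not known here. Deviations of same-numbered libraries correlated at -0.05 to 0.03, and spermatocytes 4 has no partner. With so few libraries, and spermatogonia so close to each other, this cannot show that the numbers are unrelated.

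Sign changes are listed only for members called as reported or in the alternative, and those of members called in neither are left out. On TPM (pseudocounts 0.1 and 1) signs turned for spermatocytes against spermatogonia in ZW10 (-0.18 and -0.17), BUB1 (-0.07 and -0.07) and CENPJ (-0.00392 and -0.00359). ZW10 also turned without normalization factors, to -0.07. For round spermatids against spermatogonia signs turned on TPM in OIP5 (-0.60 and -0.52), CENPH (-0.63 and -0.59), CENPK (-0.07 and -0.07), CENPP (-0.58 and -0.57), MIS12 (-0.04 and -0.03), BUB3 (-0.50 and -0.50) and, with 0.1, SGO1 (-0.60). MIS12 turned to 0.45 in round spermatids against spermatocytes without normalization factors. The median of all genes moved as well on TPM with 0.1. It went from -0.32 to -0.74 for spermatocytes against spermatogonia and from 0.00 to -0.58 for round spermatids against spermatogonia. The cause was not tested.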
